A study of Mus musculus with 9 samples.

Results

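The genes described here encode the constitutive proteasome of mouse skin, together with its assembly chaperones, activators and inhibitor. Members were the genes whose symbol begins with Psma, Psmb, Psmc, Psmd, Psme, Psmf or Psmg followed by a digit, without the immunoproteasome genes Psmb8, Psmb9 and Psmb10 and without the interferon-inducible activator genes Psme1 and Psme2. The rule used annotation alone and found 45 of the 19938 genes that had a probe set with a single symbol. Of these, 41 encode constitutive proteasome subunits or proteins that assemble, activate or inhibit the particle. Psma8 and Psmb11 encode subunits that are restricted to testis and to thymus. Psmc3ip, a meiotic recombination factor, and Psme3ip1, a partner protein of the Psme3 activator, match the symbol pattern but encode no proteasome subunit. Psme2b appeared only on a row with several symbols and was not a member.

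Whole ear skin of female C57BL/6 mice aged 7 to 9 weeks was profiled on Affymetrix Mouse Gene 1.0 ST arrays, with 3 arrays in each of 3 groups. The anisomycin group was painted with 10 µl of anisomycin at 2 mg/ml in 99.5% ethanol on each side of the ear every day for 5 days. Anisomycin is an antibiotic that blocks peptide bond formation on ribosomes and activates stress kinases. The imiquimod group received 10 mg of a 5% imiquimod cream daily for 5 days; imiquimod activates Toll-like receptors on immune cells and is widely used to provoke psoriasis-like inflammation. The labels call the third group vehicle without giving its composition or its duration, so the effect of each drug and of its own carrier (ethanol or cream) cannot be told apart. No gene was altered in any group. The labels do not say whether the 3 arrays of a group came from separate mice, and p-values therefore measure the spread between these arrays.

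The proteasome is the main protease of the cytosol and nucleus, and it degrades proteins that carry a ubiquitin chain. Its barrel-shaped 20S core consists of outer alpha rings, which gate the channel, and inner beta rings, which hold the active sites. The 19S particle caps the core; its lid removes ubiquitin, and the ATPases of its base unfold the substrate and push it inwards. Cells that lose proteasome activity can raise the transcription of most subunit genes together through the transcription factor Nfe2l1, and oxidative stress can raise several of them through Nfe2l2. Interferon can induce the subunits of the immunoproteasome, which take the place of the catalytic beta subunits.

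The deposited values are log2 expression values, and array medians over all rows lay between 6.01 and 6.03 in the treated groups and between 6.08 and 6.10 in the vehicle group. Markers of several cell types differed between groups. Of 8 neutrophil markers, 6 were higher after anisomycin and 6 after imiquimod, and their mean log2 value per array was 8.06 to 8.46 with anisomycin, 8.37 to 8.48 with imiquimod and 4.90 to 4.99 with vehicle. Of 8 macrophage and monocyte markers, 7 were higher in each treatment, with array means of 9.11 to 9.26 with anisomycin, 9.09 to 9.13 with imiquimod and 7.56 to 7.71 with vehicle. All 8 skeletal muscle markers were lower in both, with array means of 8.22 to 8.43 with anisomycin, 7.98 to 8.64 with imiquimod and 10.0 to 10.72 with vehicle. Of 7 fibroblast markers 6 were lower in each treatment (median log2 difference -0.62 after anisomycin and -0.98 after imiquimod). The remaining fibroblast marker was called higher after anisomycin, by 0.68, and was not called after imiquimod. All 5 measured adipocyte markers were lower (-1.52 and -1.25), and 4 of 6 cartilage markers were lower (-0.87 and -0.77). Keratinocyte markers were abundant in every group, with array means of 11.40 to 11.73 with anisomycin, 11.72 to 11.78 with imiquimod and 11.46 to 11.78 with vehicle; 3 of 8 were called higher and 2 lower after anisomycin, and 4 higher and 1 lower after imiquimod. The part of these shifts in the proteasome values was not tested. In bulk tissue, fewer cells of a type and less RNA per cell cannot be told apart.

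Constitutive proteasome genes were higher in treated ears than in vehicle ears, and none was called lower. After anisomycin, 29 of 45 were called higher, 0 lower and 16 passed in neither direction (limma, adjusted p under 0.05), and the median log2 difference was 0.34, a 1.26-fold change. After imiquimod, 36 were called higher, 0 lower and 9 in neither direction, with a median of 0.47 or 1.38-fold. Of all genes, 22.3% were called higher and 23.3% lower after anisomycin (45.6% in either direction), and 20.4% higher and 22.4% lower after imiquimod (42.7% in either direction), with medians of -0.01 and -0.03. The values of the anisomycin and imiquimod arrays lay wholly above those of the vehicle arrays in 29 and 37 members, against 24.9% and 24.4% of all genes.

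Proteasome genes are brightly expressed, and bright genes were called more often. Among the 45 members, 39 stood among the brightest 30% of genes. Of those brightest 5982 genes, a set chosen after the data were seen, 43.1% were called higher after anisomycin and 42.2% after imiquimod, and their median log2 differences were 0.12 and 0.13. In 2694 and 2874 of them the anisomycin and imiquimod arrays lay wholly above the vehicle arrays. The members' shares in the higher direction were 64.4% and 80.0%. Both comparisons use the same vehicle arrays, so they are not independent of each other.

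Arrays of a group differed across many members together. Relative to the mean of the vehicle arrays, the members' median was 0.31, 0.33 and 0.32 on the anisomycin arrays, 0.48, 0.48 and 0.47 on the imiquimod arrays, and 0.09, -0.15 and 0.06 on the vehicle arrays. Vehicle array 2 was the lowest of the vehicle arrays in 40 of 45 members, against 38.1% of all genes, and vehicle array 1 was the highest in 29, against 34.1%. Anisomycin array 1 was the lowest of its group in 31 of 45, against 40.6% of all genes. Without vehicle array 2, 27 members were called higher and 1 lower after anisomycin (median 0.26), and 33 higher and 0 lower after imiquimod (median 0.41). A repeated quantile normalization lowered the anisomycin median to 0.16 with 20 members called higher and 2 lower, and cyclic loess lowered it to 0.18 with 23 higher and 2 lower. The members called lower were Psme4 in both, with Psmb1 under repeated quantile normalization and Psmb4 under cyclic loess.

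**Figure D1:**
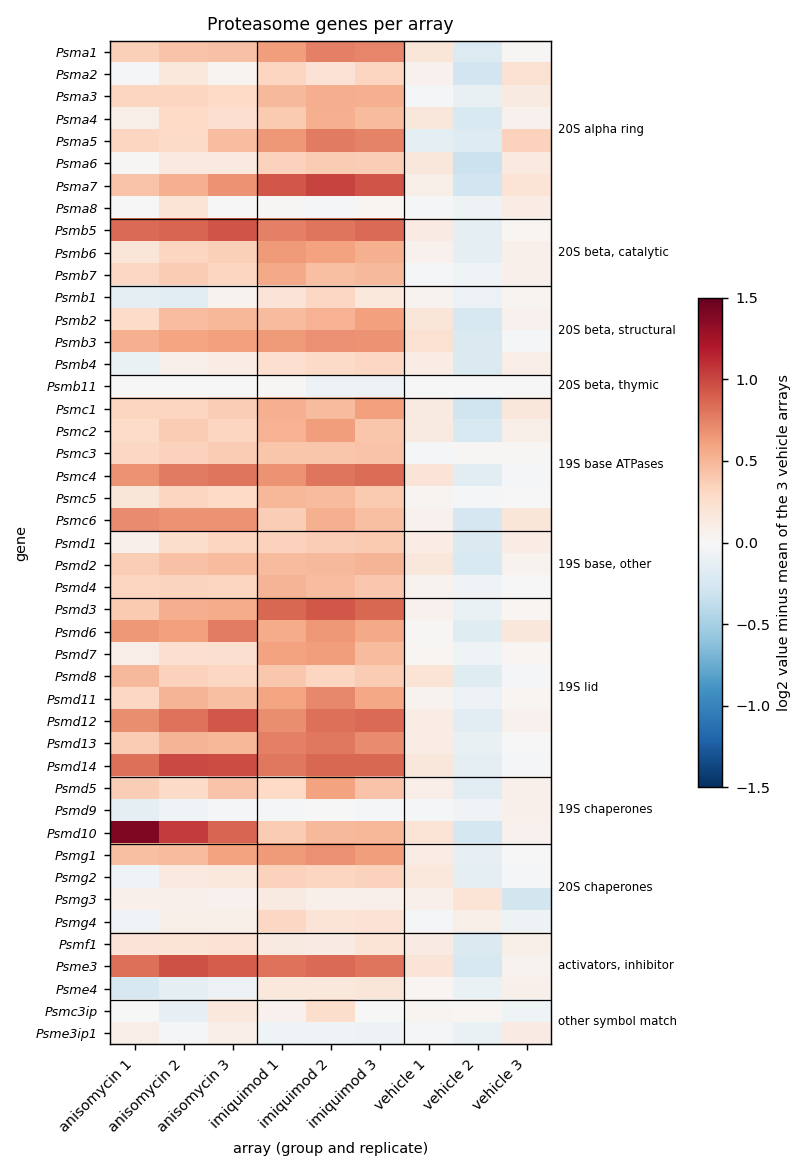
Log2 value minus the mean of the 3 vehicle arrays for each of the 45 genes (rows, grouped by role) on the anisomycin, imiquimod and vehicle arrays (columns); red is above and blue below that mean. Most rows are red on all 6 treated arrays, and vehicle array 2 is blue in most rows. Psmd10 is darkest on anisomycin arrays 1 and 2, and Psma7 on the imiquimod arrays.

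**Figure D2:**
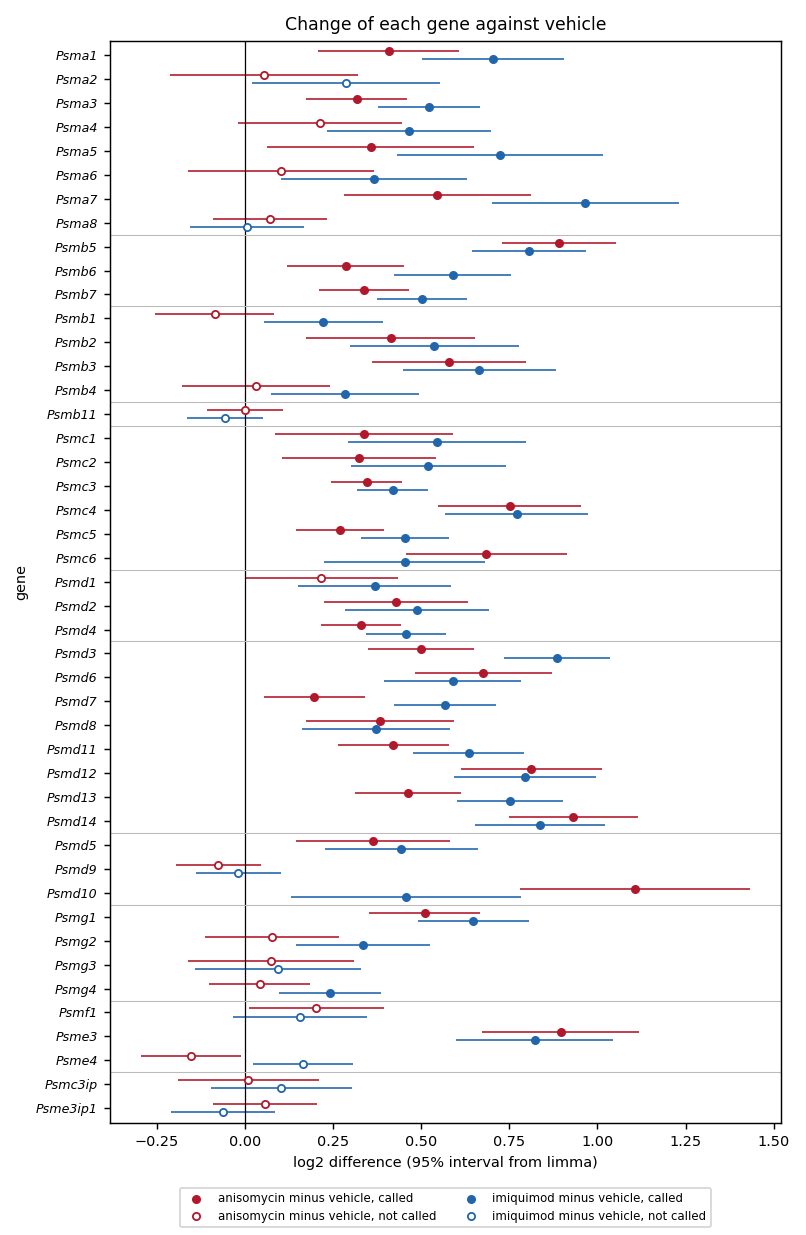
Log2 difference from vehicle with its 95% interval from limma for each gene, for anisomycin (red) and imiquimod (blue), n = 3 arrays a group; filled points were called at adjusted p under 0.05 and open points were not. All filled points lie to the right of 0, with 29 for anisomycin and 36 for imiquimod.

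The promoters of 4 genes are printed to show what the letters upstream of genes called and not called against vehicle look like. Psmb5, Psmd14 and Psme3 were among the members that were highest over vehicle in both treatments. Psme4 was called against vehicle in neither, but was called lower with anisomycin than with imiquimod. Under several alternatives it was also called lower after anisomycin than with vehicle. Each sequence is the gene's own strand from RefSeq (GRCm38.p6), the 250 bases before the annotated start, or 252 bases for Psme4, whose motif runs over the start. Capitals mark a core antioxidant response element (TGACNNNGC, the form bound by Nfe2l2 and Nfe2l1 with small Maf proteins) or a CCAAT box (CCAAT, bound by the trimer of Nfya, Nfyb and Nfyc), searched on both strands, so that in capitals the reverse complement may appear.
Psmb5, chr14:54617996-54618245, minus strand: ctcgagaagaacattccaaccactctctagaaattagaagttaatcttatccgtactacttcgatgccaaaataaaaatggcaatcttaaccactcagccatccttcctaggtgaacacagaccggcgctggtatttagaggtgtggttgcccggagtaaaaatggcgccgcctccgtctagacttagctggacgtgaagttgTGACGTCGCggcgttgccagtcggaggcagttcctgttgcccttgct
Psmd14, chr2:61711444-61711693, plus strand: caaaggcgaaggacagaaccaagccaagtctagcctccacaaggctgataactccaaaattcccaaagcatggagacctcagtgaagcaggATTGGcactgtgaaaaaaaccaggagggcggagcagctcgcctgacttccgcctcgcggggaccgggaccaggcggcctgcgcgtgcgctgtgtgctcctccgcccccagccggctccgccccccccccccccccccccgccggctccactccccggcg
Psme3, chr11:101315963-101316212, plus strand: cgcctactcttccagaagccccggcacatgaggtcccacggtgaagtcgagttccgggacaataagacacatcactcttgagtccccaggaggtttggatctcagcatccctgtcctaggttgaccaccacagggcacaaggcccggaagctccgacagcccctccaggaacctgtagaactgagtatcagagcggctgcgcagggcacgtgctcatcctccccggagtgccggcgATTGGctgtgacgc
Psme4, chr11:30771525-30771776, plus strand: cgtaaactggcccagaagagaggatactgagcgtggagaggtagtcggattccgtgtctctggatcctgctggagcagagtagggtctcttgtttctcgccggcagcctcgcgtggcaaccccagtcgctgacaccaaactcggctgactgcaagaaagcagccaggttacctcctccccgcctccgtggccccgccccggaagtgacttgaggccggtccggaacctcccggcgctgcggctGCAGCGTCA
The element of Psmb5 begins at -47 relative to the start and that of Psme4 at -7. The CCAAT boxes shown for Psmd14 and Psme3 begin at -159 and -14.

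Neither motif was more frequent among members than among all genes by more than a few percentage points. In 300-base windows, from 250 bases before the start to 50 after it, the core antioxidant response element occurred in 6 of the 37 members with a window (16.2%) and in 14% of 27025 genes. The 6 were Psmb5, Psmb6, Psmc6, Psmd9, Psmd12 and Psme4. Of these, 4 were called higher after anisomycin and 4 after imiquimod, against 20 and 25 of the 31 members without it. CCAAT occurred in 15 of 37 members (40.5%) and in 41.1% of all genes. Of the 15, 10 were called higher after anisomycin and 11 after imiquimod, against 14 and 18 of the 22 without it. The motifs did not overlap in the printed windows, and a match is a description of letters only.

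All 3 catalytic subunit genes were called higher in both treatments. Beside this and the counts by role below stand 22.3% and 20.4% of all genes called higher after anisomycin and imiquimod. Among the brightest 30% of genes these shares were 43.1% and 42.2%. Psmb5, which carries the chymotrypsin-like site that bortezomib blocks, had log2 values of 11.10, 11.12 and 11.19 with anisomycin, 11.01, 11.05 and 11.10 with imiquimod and 10.36, 10.10 and 10.28 with vehicle. Every treated array stood above every vehicle array. The difference was 0.89 ± 0.07 (SE) after anisomycin, 1.85-fold with adjusted p = 8.95e-06, and 0.81 ± 0.07 after imiquimod, 1.75-fold with adjusted p = 2.28e-05 (limma).

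Psmb6, the caspase-like subunit, had 9.29, 9.42 and 9.46 with anisomycin, 9.74, 9.71 and 9.63 with imiquimod and 9.16, 8.97 and 9.18 with vehicle. Its groups did not overlap, with imiquimod highest and vehicle lowest. The log2 difference from vehicle was 0.29 after anisomycin (1.22-fold, adjusted p = 0.01, limma) and 0.59 after imiquimod (1.5-fold, adjusted p = 0.000169); the anisomycin call was lost under repeated quantile normalization (adjusted p = 0.139) and under cyclic loess (0.161). Psmb7, the trypsin-like subunit, had 9.44, 9.51 and 9.45 with anisomycin, 9.70, 9.59 and 9.62 with imiquimod and 9.11, 9.07 and 9.22 with vehicle. It too was arranged in 3 separate bands, at 0.34 above vehicle after anisomycin (adjusted p = 0.000869, limma) and 0.50 after imiquimod (adjusted p = 9.18e-05).

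Of the 4 structural beta subunits, 2 were called higher after anisomycin and 4 after imiquimod, with median log2 differences of 0.22 and 0.41. Psmb3 had 11.9295, 11.9985 and 12.0162 with anisomycin, 12.04, 12.09 and 12.07 with imiquimod and 11.63, 11.19 and 11.39 with vehicle, and differed from vehicle by 0.58 after anisomycin (adjusted p = 0.000838, limma) and 0.67 after imiquimod (adjusted p = 0.00042). Psmb2 differed by 0.41 after anisomycin and 0.54 after imiquimod, and both were called; the anisomycin call was lost under repeated quantile normalization (adjusted p = 0.206) and cyclic loess (0.0983).

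Psmb1 and Psmb4 were not called after anisomycin, although they sit in the same ring as Psmb3. Psmb1 had 8.28, 8.27 and 8.48 with anisomycin, 8.63, 8.74 and 8.59 with imiquimod and 8.49, 8.34 and 8.47 with vehicle. The anisomycin arrays overlapped the vehicle arrays, with a difference of -0.09 (95% interval -0.25 to 0.08; adjusted p = 0.399, limma), or -0.22 with adjusted p = 0.0234 under repeated quantile normalization, and the imiquimod arrays lay above both, at 0.22 over vehicle (adjusted p = 0.0379). Psmb4 had 9.72, 9.89 and 9.92 with anisomycin, 10.07, 10.11 and 10.12 with imiquimod and 9.93, 9.60 and 9.92 with vehicle. Its difference was 0.03 after anisomycin (adjusted p = 0.816), or -0.18 with adjusted p = 0.0388 under cyclic loess, and 0.28 after imiquimod (adjusted p = 0.0341). Both imiquimod calls were also lost under repeated quantile normalization (adjusted p = 0.26 and 0.597), cyclic loess (0.185 and 0.644) and centring on stable genes (0.11 and 0.0576), and when any of several single arrays was left out, with adjusted p-values of 0.0584 to 0.137 for Psmb1 (without imiquimod array 1 or 2 or vehicle array 2 or 3) and 0.0505 to 0.0913 for Psmb4 (without any imiquimod array, anisomycin array 2 or vehicle array 2).

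The alpha ring, whose N-termini form the gate of the core, had 4 of 8 genes called higher after anisomycin and 6 of 8 after imiquimod, with median log2 differences of 0.26 and 0.49. Psma7 showed the largest difference of any member after imiquimod. It had 8.66, 8.76 and 8.90 with anisomycin, 9.16, 9.24 and 9.17 with imiquimod and 8.32, 7.93 and 8.43 with vehicle, again in 3 separate bands. The difference was 0.55 ± 0.12 (SE) after anisomycin, 1.46-fold with adjusted p = 0.00389, and 0.97 ± 0.12 after imiquimod, 1.95-fold with adjusted p = 0.000146 (limma).

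Psma1 had 9.40, 9.46 and 9.48 with anisomycin, 9.66, 9.79 and 9.77 with imiquimod and 9.22, 8.84 and 9.06 with vehicle. Here also the 3 groups did not overlap, and the differences from vehicle were 0.41 after anisomycin (adjusted p = 0.00413, limma) and 0.70 after imiquimod (adjusted p = 0.000181). Psma3 and Psma5 were called in both treatments, at 0.32 and 0.36 after anisomycin and 0.52 and 0.72 after imiquimod. The anisomycin call of Psma3 was lost under repeated quantile normalization (adjusted p = 0.0718) and cyclic loess (0.0633). The anisomycin call of Psma5 (adjusted p = 0.0492) was lost without any 1 array other than vehicle array 3, with adjusted p-values of 0.0675 to 0.16. Among other alternatives it was also lost under repeated quantile normalization (0.072) and centring on stable genes (0.0873). With the mean of its probe sets the difference was 0.21 and did not pass (adjusted p = 0.0792, limma). Psma4 and Psma6 were called in the imiquimod comparison alone, at 0.47 and 0.37, and their differences after anisomycin were 0.21 (adjusted p = 0.0479 without vehicle array 1 and 0.0382 with array weights) and 0.10; the Psma6 call was lost without any 1 imiquimod array (adjusted p = 0.0676 to 0.0806), under repeated quantile normalization (0.2) and under cyclic loess (0.167). Psma2 passed in neither, at 0.05 after anisomycin and 0.29 after imiquimod, and without vehicle array 3 its imiquimod difference passed (adjusted p = 0.0172).

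Neither of the tissue-restricted core subunits was called. Psma8, the alpha subunit of spermatocytes, had 4.55, 4.75 and 4.55 with anisomycin, 4.56, 4.52 and 4.58 with imiquimod and 4.51, 4.47 and 4.65 with vehicle. Its differences of 0.07 after anisomycin (95% interval -0.09 to 0.23; adjusted p = 0.477, limma) and 0.01 after imiquimod (adjusted p = 0.95) were not called. The 4 germ cell markers, among them Ddx4 and Sycp3, had array means of 3.48 to 3.54 with anisomycin, 3.43 to 3.47 with imiquimod and 3.46 to 3.55 with vehicle. Psmb11, the beta subunit of thymic cortical epithelium, had 5.76 on all anisomycin arrays, 5.78, 5.67 and 5.67 on the imiquimod arrays and 5.76 on all vehicle arrays. It was 1 of 314 genes with an identical value on at least 6 of the 9 arrays, and neither difference was called.

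Of the 17 members in the 19S particle, 16 were called higher after anisomycin and 17 after imiquimod, with median log2 differences of 0.42 and 0.54. Of the 14 constitutive core genes, 9 and 13 were called higher, with medians of 0.33 and 0.53. The shares called higher were 22.3% and 20.4% of all genes and 43.1% and 42.2% of the brightest 30% of genes. Whether the particles differed from each other was not tested.

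All 6 ATPase genes of the base were called higher in both treatments. Psmc4 had 9.30, 9.41 and 9.43 with anisomycin, 9.31, 9.43 and 9.47 with imiquimod and 8.82, 8.46 and 8.61 with vehicle. The treated groups overlapped each other and lay above vehicle, at 0.75 ± 0.09 after anisomycin (SE; 1.68-fold, adjusted p = 0.000105, limma) and 0.77 ± 0.09 after imiquimod (1.71-fold, adjusted p = 0.000113). Psmc5 had 8.23, 8.36 and 8.34 with anisomycin, 8.54, 8.52 and 8.44 with imiquimod and 8.08, 8.01 and 8.03 with vehicle, in 3 separate bands, with differences of 0.27 after anisomycin (adjusted p = 0.00291) and 0.46 after imiquimod (adjusted p = 0.000145).

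Psmc6 had a log2 difference of 0.68 after anisomycin and 0.45 after imiquimod, and the treatments differed by 0.23 without passing (adjusted p = 0.154, limma; 0.0103 with array weights and 0.0248 in a fit of only these 2 groups). Psmc1, Psmc2 and Psmc3 differed by 0.34, 0.32 and 0.35 after anisomycin and by 0.54, 0.52 and 0.42 after imiquimod. The anisomycin call of Psmc1 was lost without any 1 anisomycin array or imiquimod array 1 (limma adjusted p = 0.0515 to 0.0838) and that of Psmc2 without anisomycin array 2 (adjusted p = 0.0735). Under repeated quantile normalization neither passed (adjusted p = 0.16 and 0.0615), and Psmc1 also did not pass under cyclic loess (0.0888), centring on stable genes (0.0563) or a fit of only these 2 groups (0.0751).

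Of the remaining base genes, Psmd2 encodes the scaffold that docks ubiquitin shuttles and Psmd4 a ubiquitin receptor, and both were called higher in both treatments. Psmd2 had 10.73, 10.80 and 10.83 with anisomycin, 10.83, 10.84 and 10.87 with imiquimod and 10.53, 10.13 and 10.42 with vehicle, a difference of 0.43 after anisomycin (adjusted p = 0.00348, limma) and 0.49 after imiquimod (adjusted p = 0.00188); under repeated quantile normalization neither passed (0.11 and 0.0504). Psmd4 had 8.05, 8.07 and 8.05 with anisomycin, 8.23, 8.19 and 8.13 with imiquimod and 7.79, 7.68 and 7.72 with vehicle. It was again ordered imiquimod, anisomycin, vehicle without overlap, at 0.33 over vehicle after anisomycin (adjusted p = 0.000488) and 0.46 after imiquimod (adjusted p = 8.02e-05). Psmd1, the other large scaffold, had 10.12, 10.31 and 10.37 with anisomycin, 10.40, 10.42 and 10.44 with imiquimod and 10.16, 9.83 and 10.16 with vehicle. Its anisomycin array 1 fell within the vehicle range; the difference was 0.22 (adjusted p = 0.0969; 0.0439 without that array) after anisomycin and 0.37 (adjusted p = 0.0118) after imiquimod. The imiquimod call of Psmd1 was lost under repeated quantile normalization (adjusted p = 0.277) and cyclic loess (0.251), and its anisomycin difference passed after median centring (0.0435) and with array weights (0.0322).

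The lid had the largest group median, 0.48 after anisomycin and 0.69 after imiquimod. All 8 lid genes among the members were called higher in both treatments, and Psmd7 and Psmd8 lost calls under other scalings. Sem1, a lid subunit outside the symbol rule, was not called after anisomycin (-0.13, adjusted p = 0.0813, limma) and was called lower there under some scalings. After imiquimod Sem1 was called higher, at 0.29. Psmd14, the metalloprotease that cuts ubiquitin chains from substrates, had 9.69, 9.86 and 9.84 with anisomycin, 9.65, 9.72 and 9.73 with imiquimod and 9.03, 8.72 and 8.84 with vehicle. The treated groups overlapped each other and were separate from vehicle. The difference was 0.93 ± 0.08 (SE) after anisomycin, 1.91-fold with adjusted p = 1.53e-05, and 0.84 ± 0.08 after imiquimod, 1.79-fold with adjusted p = 3.87e-05 (limma).

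Psmd12, a scaffold subunit of the lid, followed the same arrangement. It had 8.82, 8.93 and 9.06 with anisomycin, 8.82, 8.96 and 8.98 with imiquimod and 8.23, 7.96 and 8.18 with vehicle, at 0.81 over vehicle after anisomycin (adjusted p = 5.84e-05, limma) and 0.79 after imiquimod (adjusted p = 8.77e-05). Psmd6 and Psmd11 differed by 0.68 and 0.42 after anisomycin and by 0.59 and 0.63 after imiquimod. Psmd8 had 9.96, 9.82 and 9.79 with anisomycin, 9.89, 9.79 and 9.86 with imiquimod and 9.68, 9.29 and 9.46 with vehicle, and differed by 0.38 after anisomycin (adjusted p = 0.00742) and 0.37 after imiquimod (adjusted p = 0.0098). Both Psmd8 calls were lost under repeated quantile normalization (adjusted p = 0.158 and 0.183) and cyclic loess (0.0887 and 0.182).

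In 4 lid genes, Psmd3, Psmd7, Psmd11 and Psmd13, every imiquimod array stood above every anisomycin array, which in turn stood above every vehicle array. Anisomycin arrays lay wholly below imiquimod arrays in 17.9% of all genes and in 1939 of the brightest 5982. They lay wholly above vehicle arrays in 24.9% of all genes and in 2694 of that bright set. The share of all genes in 3 such bands was not counted, for these or for other members. Psmd11 had 8.68, 8.88 and 8.82 with anisomycin, 8.97, 9.10 and 8.96 with imiquimod and 8.43, 8.29 and 8.40 with vehicle. Psmd3 had 8.74, 8.90 and 8.91 with anisomycin, 9.21, 9.28 and 9.20 with imiquimod and 8.42, 8.25 and 8.38 with vehicle, giving 0.50 over vehicle after anisomycin (1.41-fold, adjusted p = 0.000203, limma) and 0.89 after imiquimod (1.85-fold, adjusted p = 9.23e-06). Psmd7, the inactive partner of Psmd14, had 8.88, 9.02 and 9.02 with anisomycin, 9.37, 9.40 and 9.25 with imiquimod and 8.81, 8.71 and 8.81 with vehicle, giving 0.20 after anisomycin (adjusted p = 0.0302) and 0.57 after imiquimod (adjusted p = 8.98e-05). The anisomycin call of Psmd7 was lost without anisomycin array 2, anisomycin array 3 or vehicle array 2 (adjusted p = 0.0858 to 0.103), under repeated quantile normalization (0.635), cyclic loess (0.548) and centring on stable genes (0.147), and with a replicate block (0.0597). Psmd13 had 8.88, 9.02 and 9.01 with anisomycin, 9.26, 9.29 and 9.22 with imiquimod and 8.62, 8.40 and 8.50 with vehicle, giving 0.46 after anisomycin and 0.75 after imiquimod, both called.

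**Figure D3:**
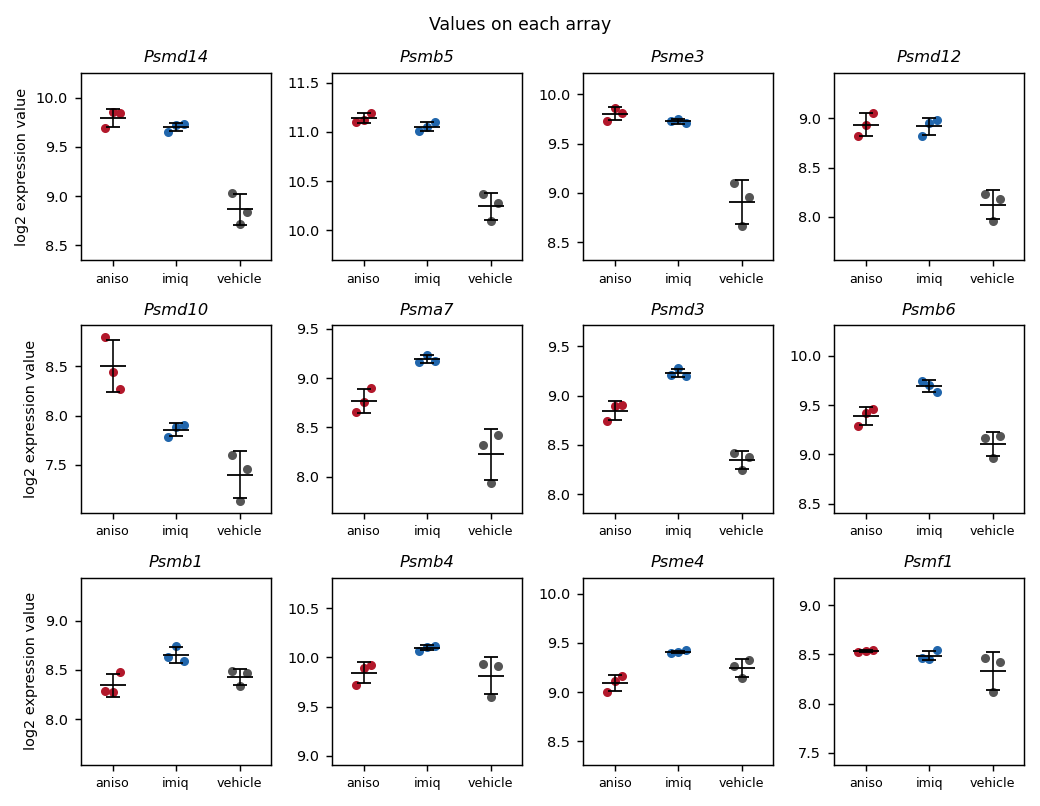
Log2 expression value on each array for 12 genes, with anisomycin (aniso), imiquimod (imiq) and vehicle from left to right; points are arrays, and bars are the mean ± SD of 3 arrays. Psmd14, Psmb5, Psme3 and Psmd12 stand above vehicle at similar heights in both treatments, Psmd10 is highest with anisomycin, Psma7, Psmd3 and Psmb6 are highest with imiquimod, and Psmb1, Psmb4, Psme4 and Psmf1 with anisomycin lie close to or within the range of vehicle.

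Among the chaperones that build the 19S base, Psmd10, also called gankyrin, had the largest difference of any member. It had 8.80, 8.44 and 8.27 with anisomycin, 7.78, 7.88 and 7.90 with imiquimod and 7.60, 7.13 and 7.46 with vehicle. The groups did not overlap, and the anisomycin arrays also spread most. The difference was 1.11 ± 0.14 (SE) after anisomycin, 2.15-fold with adjusted p = 0.000185, and 0.46 ± 0.14 after imiquimod, 1.37-fold with adjusted p = 0.0297 (limma). The imiquimod call was lost without any 1 imiquimod array or without vehicle array 2 or 3 (adjusted p = 0.0537 to 0.097).

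Psmd5 was called higher in both, at 0.36 after anisomycin (adjusted p = 0.0119, limma) and 0.44 after imiquimod (adjusted p = 0.00457). Psmd9 had 7.03, 7.11 and 7.14 with anisomycin, 7.14, 7.16 and 7.14 with imiquimod and 7.14, 7.12 and 7.24 with vehicle, and its differences of -0.08 after anisomycin (adjusted p = 0.295) and -0.02 after imiquimod (adjusted p = 0.825) were not called; centred on stable genes, the anisomycin difference was -0.16 and passed (adjusted p = 0.029).

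Of the 4 chaperones of the 20S core, 1 was called higher after anisomycin and 3 after imiquimod. Psmg1 had 7.85, 7.87 and 8.0 with anisomycin, 8.03, 8.08 and 8.02 with imiquimod and 7.51, 7.28 and 7.40 with vehicle, at 0.51 over vehicle after anisomycin (adjusted p = 0.000247, limma) and 0.65 after imiquimod (adjusted p = 7.1e-05). Its treated arrays stood above all vehicle arrays. Psmg2, which pairs with Psmg1, differed by 0.08 after anisomycin (not called) and 0.33 after imiquimod (adjusted p = 0.00982). Psmg4 differed by 0.04 after anisomycin (not called) and 0.24 after imiquimod (adjusted p = 0.0128; 0.053 without imiquimod array 1 and 0.0734 with centring on stable genes). Psmg3, the partner of Psmg4, was a dim signal of 5.38, 5.38 and 5.37 with anisomycin, 5.43, 5.37 and 5.38 with imiquimod and 5.37, 5.503 and 5.02 with vehicle. Its groups overlapped, and neither the anisomycin (adjusted p = 0.61) nor the imiquimod difference (adjusted p = 0.523) was called.

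Of the activators, Psme3 was called higher in both treatments and Psme4 in neither. Psme3, which forms the nuclear activator that opens the core without ATP, had 9.73, 9.86 and 9.81 with anisomycin, 9.73, 9.75 and 9.70 with imiquimod and 9.10, 8.66 and 8.96 with vehicle. All treated arrays lay above all vehicle arrays, at 0.90 ± 0.10 after anisomycin (SE; 1.86-fold, adjusted p = 6.04e-05, limma) and 0.82 ± 0.10 after imiquimod (1.77-fold, adjusted p = 0.000132). Psme4, the large single-chain activator known for histone degradation, had 9.00, 9.11 and 9.16 with anisomycin, 9.40, 9.40 and 9.42 with imiquimod and 9.27, 9.14 and 9.32 with vehicle.

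The vehicle values of Psme4 thus lay between those of the treatments, with the anisomycin arrays reaching into their range. Its difference was -0.15 after anisomycin (adjusted p = 0.0741, limma) and 0.16 after imiquimod (adjusted p = 0.061). Without vehicle array 2 the anisomycin difference was -0.20 and passed (adjusted p = 0.0215), and it was also called lower under repeated quantile normalization, cyclic loess and centring on stable genes and with array weights (adjusted p = 0.000413 to 0.0202). The imiquimod difference passed without vehicle array 3 or anisomycin array 1 (adjusted p = 0.0385 and 0.0471) and after median centring (0.0238).

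Psmf1, an inhibitor of the core in vitro, had 8.52, 8.53 and 8.54 with anisomycin, 8.47, 8.45 and 8.54 with imiquimod and 8.46, 8.11 and 8.42 with vehicle. It differed by 0.20 after anisomycin (adjusted p = 0.0798, limma; 0.0363 without vehicle array 1 and 0.0371 after median centring) and 0.16 after imiquimod (adjusted p = 0.177). The 2 genes that share only the symbol pattern were called in neither treatment. After anisomycin Psmc3ip differed by 0.01 and Psme3ip1 by 0.06 (adjusted p = 0.944 and 0.531), and after imiquimod by 0.10 and -0.06 (adjusted p = 0.402 and 0.503).

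The direct comparison of anisomycin with imiquimod called 1 member higher and 9 lower. The share called, 22.2%, was near the 20.4% of all genes, of which 10.8% were higher and 9.59% lower. It was below the 37.2% of the brightest 5982 genes, of which 1110 were called higher and 1113 lower, with a median log2 difference of -0.01. In that bright set 1886 genes were higher and 1939 lower without overlap of the arrays. The members' median log2 difference was -0.14, against 0.01 for all genes, and 4 members were higher and 26 lower with anisomycin without overlap of the arrays, against 21.4% and 17.9% of all genes. The 9 called lower were Psma1, Psma7, Psmb1, Psmb6, Psmc5, Psmd3, Psmd7, Psmd13 and Psme4, which lie in the core, the base, the lid and an activator.

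Psma7 had the lowest difference, -0.42 (adjusted p = 0.0338, limma), followed among the called genes by Psmd3 at -0.38 (adjusted p = 0.00425), Psmd7 at -0.37 (adjusted p = 0.00417) and Psme4 at -0.32 (adjusted p = 0.00773). Psmb1, Psmb6, Psma1, Psmd13 and Psmc5 differed by -0.31, -0.30, -0.30, -0.29 and -0.19. Only Psmd3, Psmd7 and Psme4 remained called without any 1 array and under every alternative. The other 6 were lost without at least 3 single arrays each, with adjusted p-values of 0.0505 to 0.142. Without vehicle array 2, which enters this comparison only through the shared estimate of spread, 18 members were called lower and 2 higher.

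Psmd10 was the member called higher with anisomycin, by 0.65 (1.57-fold, adjusted p = 0.0133, limma; 0.0532 without imiquimod array 1). Several genes that were high in both treatments were not called between them. Psmb5 differed between them by 0.08 (95% interval -0.08 to 0.25; adjusted p = 0.484), Psmd14 by 0.09 (-0.09 to 0.28; adjusted p = 0.494), and Psme3 and Psmc4 by 0.07 and -0.02.

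**Figure D4:**
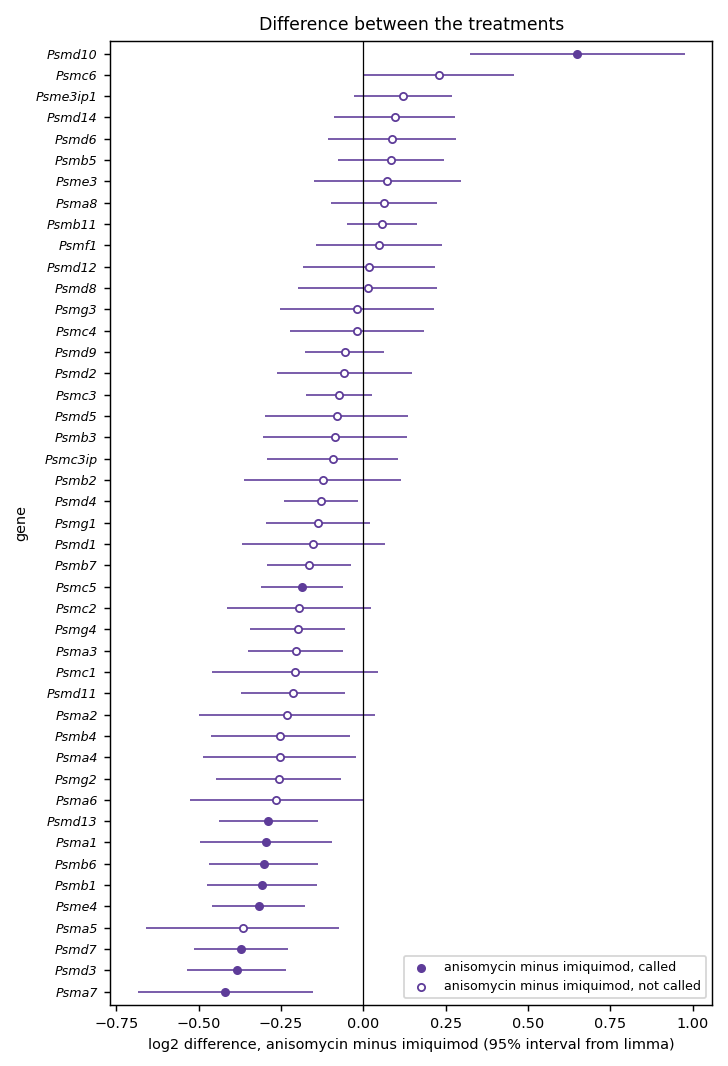
Log2 difference, anisomycin minus imiquimod, with its 95% interval from limma for each of the 45 genes, sorted; filled points were called at adjusted p under 0.05, n = 3 arrays a group. Psmd10 stands alone at the right at 0.65, and 9 filled points lie at the left between -0.42 and -0.19.

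Of the genes left out by the rule (Psmb8, Psmb9, Psmb10, Psme1 and Psme2), which form the immunoproteasome and its activator, 1 was called higher after anisomycin (Psmb10, 0.29, adjusted p = 0.0253, limma; 0.0789 to 0.0883 without anisomycin array 2 or 3 or vehicle array 3 and 0.0777 with centring on stable genes) and 4 after imiquimod. Among all genes, 22.3% and 20.4% were called higher after anisomycin and imiquimod. Psmb8, which takes the place of Psmb5, had 6.13, 6.13 and 6.05 with anisomycin, 6.23, 6.17 and 6.40 with imiquimod and 5.89, 6.07 and 5.88 with vehicle. It differed by 0.16 after anisomycin (adjusted p = 0.12; 0.0384 without vehicle array 2, and 0.0102 to 0.0463 under median centring, repeated quantile normalization, cyclic loess and array weights) and 0.32 after imiquimod (adjusted p = 0.00687). Psme2, a subunit of the interferon-inducible activator, differed by -0.19 (adjusted p = 0.363) after anisomycin and 0.62 (adjusted p = 0.00958) after imiquimod, and was lower with anisomycin than with imiquimod, at -0.81 (adjusted p = 0.00678). Its partner Psme1 differed by -0.08 after anisomycin (adjusted p = 0.649) and 0.37 after imiquimod (adjusted p = 0.0331), a call that was lost without any 1 imiquimod array or vehicle array 2 or 3 (0.0682 to 0.11) and under repeated quantile normalization (0.231) and cyclic loess (0.219).

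Within each array, the log2 value of each immunosubunit minus that of its constitutive counterpart gave the inequality of the changes. Psmb8 minus Psmb5 changed by -0.73 after anisomycin and -0.49 after imiquimod, and Psmb9 minus Psmb6 by -0.37 and -0.53. The constitutive gene thus had the higher log2 difference from vehicle in each case. Psmb9 itself differed by -0.08 and 0.06, neither called. In brightness among all genes, Psmb8 stood at percentile 43.1 and Psmb5 at 98.7, and Psmb9 at 61.8 and Psmb6 at 93.8. The part of brightness in these differences was not tested. Psmb10 minus Psmb7 changed by -0.05 and 0.03. Exact two-sided permutation tests gave p = 0.1 for the first 4 values, the smallest that 3 against 3 arrays allow, and p = 0.6 and 0.9 for the last pair; after adjustment over 9 comparisons none was below 0.18. Under cyclic loess the first 4 changes shrank to -0.35, -0.07, -0.14 and -0.28.

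Other genes of the pathway gave context, from lists of 42 symbols, older synonyms of a few genes included, of which 28 were found on a row of their own. After anisomycin 17 were called higher and 1 lower (median log2 difference 0.35), and after imiquimod 15 higher and 2 lower (0.25). The shares called higher were 60.7% and 53.6%, against 22.3% and 20.4% of all genes and 43.1% and 42.2% of the brightest 30% of genes. Of all genes, 23.3% and 22.4% were called lower. Of 7 measured assembly and associated factors, 5 were higher after anisomycin and 6 after imiquimod. Pomp, which drives maturation of the core, had 8.07, 8.31 and 8.24 with anisomycin, 8.57, 8.51 and 8.56 with imiquimod and 7.97, 7.81 and 7.74 with vehicle, at 0.36 over vehicle after anisomycin (adjusted p = 0.00366, limma) and 0.70 after imiquimod (adjusted p = 8.12e-05). Sem1, the smallest lid subunit, differed by -0.13 after anisomycin (adjusted p = 0.0813; 0.0105 to 0.0254 and called lower under repeated quantile normalization, cyclic loess and centring on stable genes) and 0.29 after imiquimod (adjusted p = 0.00247). Uchl5, a deubiquitinase of the base, differed by 0.68 after anisomycin and 0.72 after imiquimod, both called.

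Of 8 measured regulators, 4 were called higher and 1 lower after anisomycin, and 3 higher and 0 lower after imiquimod. The shares called higher were 50% and 37.5%, against 22.3% and 20.4% of all genes. Of the brightest 30% of genes, 43.1% and 42.2% were called higher. Nfe2l2 had 10.20, 10.27 and 10.20 with anisomycin, 10.13, 9.93 and 10.11 with imiquimod and 9.18, 8.95 and 9.15 with vehicle, at 1.13 over vehicle after anisomycin (2.19-fold, adjusted p = 3.58e-06, limma) and 0.97 after imiquimod (1.95-fold, adjusted p = 1.31e-05). Nfe2l1 had 9.00, 8.97 and 9.11 with anisomycin, 9.38, 9.38 and 9.48 with imiquimod and 9.56, 9.56 and 9.49 with vehicle. Its RNA was lower after anisomycin, at -0.51 (adjusted p = 6.44e-05), and was not called after imiquimod (-0.12, adjusted p = 0.113; -0.33 to -0.20 and called under repeated quantile normalization, cyclic loess and centring on stable genes); the 2 treatments differed by -0.38 (adjusted p = 0.00211). The activity of both factors is set largely at the protein level, which arrays do not measure.

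Of 11 measured shuttles and segregase genes, 7 were higher after anisomycin, and 5 higher and 2 lower after imiquimod. The shares called higher were 63.6% and 45.5%. They were 22.3% and 20.4% for all genes and 43.1% and 42.2% for the brightest 30% of genes. Rad23b, which carries ubiquitinated proteins to the proteasome, differed by 0.97 after anisomycin (adjusted p = 2.51e-06, limma) and 1.07 after imiquimod (adjusted p = 2.23e-06). Vcp, the ATPase that extracts proteins from complexes and membranes, differed by 0.22 after anisomycin (adjusted p = 0.008; -0.031 and not called under repeated quantile normalization, and not called under cyclic loess or centring on stable genes, 0.991 and 0.0646) and 0.55 after imiquimod (adjusted p = 3.46e-05). Sqstm1, an autophagy receptor, differed by 0.19 after anisomycin (adjusted p = 0.0519; 0.0221 without anisomycin array 3 and 0.0263 after median centring) and -0.23 after imiquimod (adjusted p = 0.0235; 0.0514 to 0.0848 without imiquimod array 1 or 2 or vehicle array 2 or 3 and 0.0697 after median centring). Between the treatments Sqstm1 differed by 0.41 (adjusted p = 0.00354). Uba6, a ubiquitin-activating enzyme, differed by 0.80 after anisomycin (adjusted p = 5.76e-05) and 0.33 after imiquimod (adjusted p = 0.0126).

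**Figure D5:**
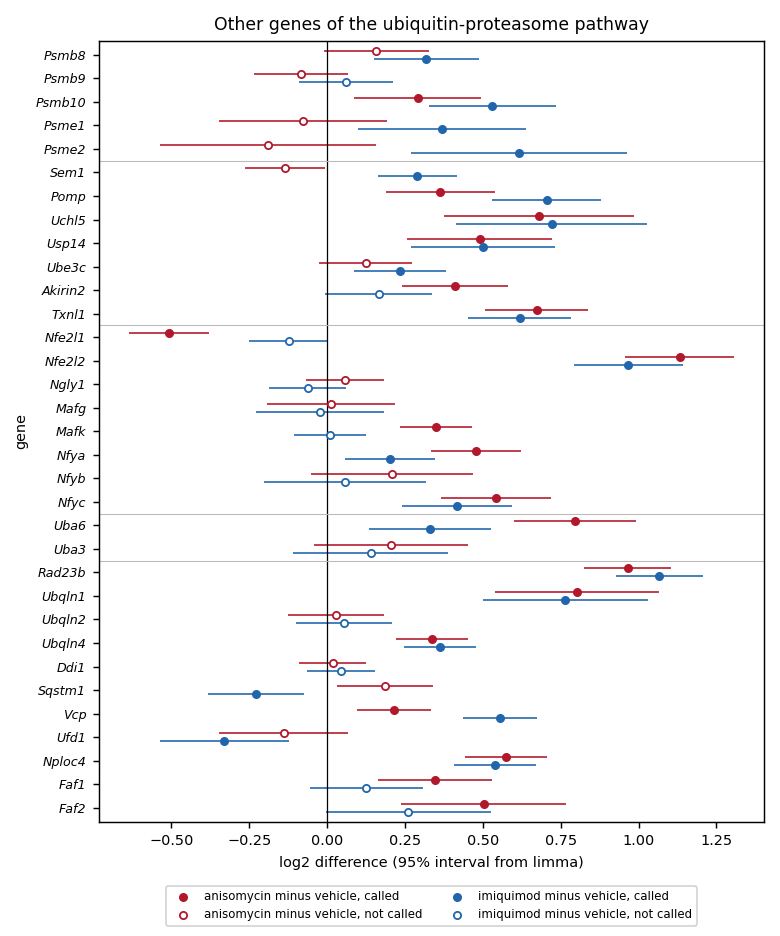
Log2 difference from vehicle with its 95% interval from limma for the immunoproteasome genes (top) and 28 other genes of the ubiquitin-proteasome pathway, for anisomycin (red) and imiquimod (blue), n = 3 arrays a group; filled points were called at adjusted p under 0.05. Nfe2l2 and Rad23b lie farthest to the right in both, and Nfe2l1 lies farthest to the left after anisomycin.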

How the data were processed

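Total RNA of whole ear skin from 9 samples (3 groups of 3) was hybridized to 1-colour Affymetrix Mouse Gene 1.0 ST arrays. The authors deposited log2 values made with RMA, per the submitters' processing notes; its version, the genome build and whether all arrays were normalized together are not given in the sources used here. No read depth exists for arrays; the number of arrays limits the precision. The table held 35556 rows, of which 21789 had 1 gene symbol in the platform annotation, 1621 several and 12146 none. For 999 genes with several probe sets the one with the highest mean over 9 arrays was kept, whatever the others showed, which left 19938 genes. Of the members, 5 had several probe sets, namely Psma3, Psma5, Psmb3, Psmc1 and Psmd2.

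From the deposited log2 values, lmFit and eBayes of limma 3.58.1 (R 4.3.3) were run on all genes and all 9 arrays, without a filter or covariate, and p-values were adjusted by Benjamini-Hochberg over all genes; a call is an adjusted p under 0.05. The fit was tested on simulated data. Differences within an array between subunits were compared by exact two-sided permutation tests. Named with values per array were, in each role, the members with the largest and smallest mean difference from vehicle, the members called lower in any comparison, the 8 called with the largest difference between treatments, and the catalytic subunits, Psmd4, Psmd14, Psme3, Psme4, Psmf1, Psma8, Psmb11 and Psmc3ip. Of the other lists, the immunoproteasome genes, Pomp, Nfe2l1, Nfe2l2 and the largest rise and fall of each list were named. Psmd12, Psmb4 and the genes outside these rules were added after their values were seen, and Psmc3ip and Psme3ip1 are given by their differences. The members, lists and rules were chosen with earlier results of these data known. All 45 members matched RefSeq genes by Entrez identifier, and 37 had a promoter window there. No 2 arrays held the same values. Alternatives were other scalings, probe set rules, filters, priors, array weights, fits of 2 groups, a replicate block and the omission of each array.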

Additional observations from a re-analysis of the deposited data

How the results depend on the processing

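Of the 29 members called higher after anisomycin, 20 remained called under every alternative run, as did 28 of the 36 after imiquimod and 3 of the 10 called between the treatments. Scaling moved the size of the change most. After anisomycin the members' median of 0.34 became 0.16 under repeated quantile normalization, 0.18 under cyclic loess and 0.25 with arrays centred on 1000 stable genes; each of these called 2 members lower (Psme4 with Psmb1, Psmb4 and Psmd9 in that order), and array weights called 1 lower. After imiquimod the median of 0.47 became 0.36 under repeated quantile normalization and 0.34 under cyclic loess. For the other pathway genes, the anisomycin median became 0.27 (repeated quantile) and 0.26 (stable genes), with 3, 3 and 2 called lower under repeated quantile, cyclic loess and stable genes; the imiquimod median became 0.14 (repeated quantile) and 0.15 (cyclic loess), with 1 called lower after median centring. Between the treatments, array weights called 4 members higher and 22 lower, and 10 other pathway genes higher, and fitting only those 2 groups called 2 members higher and 16 lower. Over all genes, array weights called 4536 higher and 4021 lower between the treatments, against 2147 and 1912. Centring on stable genes set the share of calls that were higher to 37.0% against 49.0% after anisomycin, and to 36.2% against 47.7% after imiquimod, and the median of all genes to -0.09 and -0.10.

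Under cyclic loess, Psmb8 minus Psmb5 was -0.35 after anisomycin and -0.067 after imiquimod, Psmb9 minus Psmb6 was -0.14 and -0.28, and Psmb10 minus Psmb7 was 0.16 and 0.25, the first of opposite sign. Psmb4 reversed to -0.18 after anisomycin under cyclic loess and Vcp to -0.031 under repeated quantile normalization. The cause was not tested.

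Leaving out each array in turn gave 25 to 30 members higher and 0 to 1 lower after anisomycin (median 0.26 to 0.37), 31 to 37 higher and 0 lower after imiquimod (median 0.41 to 0.51), and 0 to 2 higher and 3 to 18 lower between the treatments (median -0.17 to -0.11). For the other pathway genes it gave 17 to 18 higher and 1 lower (0.33 to 0.37), 13 to 16 higher and 0 to 2 lower (0.16 to 0.30), and 3 to 7 higher and 3 to 4 lower (0.04 to 0.07). Over all genes it gave 3972 to 4306 higher and 3949 to 4450 lower after anisomycin, 3537 to 4133 and 3672 to 4478 after imiquimod, and 1320 to 2562 and 1061 to 2214 between the treatments. For the pairs, after anisomycin, after imiquimod and between the treatments, Psmb8 minus Psmb5 gave -0.82 to -0.60, -0.57 to -0.35 and -0.29 to -0.19; Psmb9 minus Psmb6 gave -0.46 to -0.28, -0.62 to -0.44 and 0.07 to 0.23; and Psmb10 minus Psmb7 gave -0.15 to 0.0054, -0.071 to 0.13 and -0.17 to 0.012, changing sign.

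The labels give the same replicate numbers to every group. Same-numbered arrays did not deviate together, with correlations of -0.201, -0.0248 and 0.0753 for anisomycin with vehicle, -0.0877, -0.0176 and 0.193 for imiquimod with vehicle and 0.196, -0.0202 and 0.0682 for anisomycin with imiquimod, so the numbers were not taken as pairs. With a replicate block, 28 members were higher after anisomycin, 35 after imiquimod, and 1 higher and 7 lower between the treatments. A lone group of 3 arrays, a vehicle of unstated composition and whole tissue bound what these values can show.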

Other observations

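The pathway lists held further genes that changed with the treatments, named here after their values were seen. Of the trimer that binds CCAAT boxes, Nfya was higher by 0.48 after anisomycin (adjusted p = 0.000219, limma) and 0.20 after imiquimod (adjusted p = 0.0298), and was higher with anisomycin than with imiquimod by 0.28 (adjusted p = 0.0161). Nfyc was higher by 0.54 after anisomycin and 0.42 after imiquimod (adjusted p = 0.000329 and 0.00192), and Nfyb, at 0.21 after anisomycin and 0.06 after imiquimod, was not called. Mafk, a small Maf partner of Nfe2l1 and Nfe2l2, was higher after anisomycin by 0.35 (adjusted p = 0.00039) and differed by 0.01 after imiquimod (adjusted p = 0.906), a difference between the treatments of 0.34 (adjusted p = 0.00248). Akirin2, which carries proteasomes into the nucleus, was higher after anisomycin by 0.41 (adjusted p = 0.00158), differed by 0.17 after imiquimod (adjusted p = 0.114), and was higher with anisomycin than with imiquimod by 0.24 (adjusted p = 0.0495). That last call was lost without anisomycin array 1 or 3, any imiquimod array, or vehicle array 1 or 3 (adjusted p = 0.0543 to 0.151). Repeated quantile normalization, centring on medians or stable genes and a replicate block lost it too. So did a trended robust prior, a test of all rows and a fit of only these 2 groups (limma adjusted p = 0.0529 to 0.0772 over these settings).

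Further genes of the lists of associated factors and shuttles were called in both treatments, others in 1 alone. Usp14, a deubiquitinase that associates with the 19S base, was higher by 0.49 after anisomycin and 0.50 after imiquimod (adjusted p = 0.00336 and 0.00332, limma). Txnl1, a thioredoxin-like protein bound to the 19S particle, was higher by 0.67 after anisomycin and 0.62 after imiquimod (adjusted p = 5.73e-05 and 0.000123). The shuttle Ubqln1 was higher by 0.80 after anisomycin and 0.77 after imiquimod (adjusted p = 0.000362 and 0.000574). Of the cofactors of Vcp, Nploc4 was higher by 0.57 after anisomycin and 0.54 after imiquimod (adjusted p = 3.84e-05 and 7.4e-05), whereas Ufd1, its partner, differed by -0.14 after anisomycin (adjusted p = 0.261; 0.00538 and 0.00706 under repeated quantile normalization and cyclic loess) and was lower after imiquimod, at -0.33 (adjusted p = 0.016). The Ufd1 call was lost without imiquimod array 1 or vehicle array 1 or 3 (adjusted p = 0.0559 to 0.0583).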
